A study of Homo sapiens with 4 samples.

Results

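Translation initiation factors are the proteins that bring the small ribosomal subunit, the initiator tRNA and an mRNA together at the start codon. In the deposited comparison table the rule took every protein-coding row whose gene symbol begins with EIF and a digit, which gave 52 genes with 128 transcripts, out of 12120 protein-coding genes with 26348 transcripts. The table as a whole listed 43596 transcripts of every type. The RNA came from MDA-MB-231 cells, a human line established from a breast cancer that lacks hormone receptors and HER2, exposed for 24 h either to DMSO, the solvent, or to 10 µM KH-3, an inhibitor of the RNA-binding protein HuR, with 2 libraries for each treatment and 4 in all, described in the methods as biological replicates.

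The value used here was the authors' mean normalized read count, 1 number per transcript taken over the libraries, and which libraries entered it is not given in the sources used here. The methods also describe a group at a lower dose of KH-3, not used here, whose libraries may have entered the mean. No value of a single library was used, so neither an SD nor a difference between DMSO and KH-3 is reported. The fold changes and p-values of the authors' own comparison were not used. To compare genes, the count of each transcript was divided by its length in kb, and the protein-coding transcripts of a gene were added. This sum is the level, in reads per kb, and it covers the listed transcripts alone. Since no replicate spread was at hand, close neighbours in an order of levels could not be told apart by a test.

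Initiation runs through a fixed set of complexes. eIF1, eIF1A and eIF3 load onto the small subunit, eIF2 carries the initiator tRNA as a complex with GTP, and eIF4F binds the cap of the mRNA and unwinds the leader. eIF5 triggers GTP hydrolysis on eIF2, eIF5B joins the large subunit, and eIF2B reloads eIF2 with GTP. When one of the eIF2 kinases phosphorylates the alpha subunit of eIF2, eIF2B is blocked and most initiation slows, a switch known as the integrated stress response.

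The initiation factors lay high among the genes of the table. Their median level was 464 reads per kb, against 117 for all protein-coding genes, and their median percentile was 83.5. Of the 52 genes, 40 lay above the median of all genes and 22, or 42.3%, above the 90th percentile. The levels ran from 4.41 reads per kb for EIF3CL to 4343 for EIF4H, a ratio of 984. The lower end rests on EIF3CL, with a mean normalized read count of 13.6 that cannot be assigned to this gene with certainty, and with at least 50 reads per transcript the ratio was 290. By group the median was 1292 reads per kb over the 13 eIF3 genes and 1044 over the 3 eIF2 genes, and it was 121 over the 5 genes of the eIF5 group. The 121 is the level of EIF5AL1, a copy of EIF5A, and some of its reads could belong to either gene. The order of the groups depended on which transcripts were summed. With every transcript type eIF2 had 1835 and eIF3 1600, with the highest transcript alone 1044 and 997, and the lowest group with every type was eIF4F, with 378 against 517 for eIF5. With at least 50 reads per transcript EIF5A and EIF6 dropped out. The eIF5 group, without EIF5A, then had 399, above the 199 of EIF2A and EIF2D, left in the group of EIF6. These are counts and medians of pooled values, and no test was made.

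**Figure D1:**
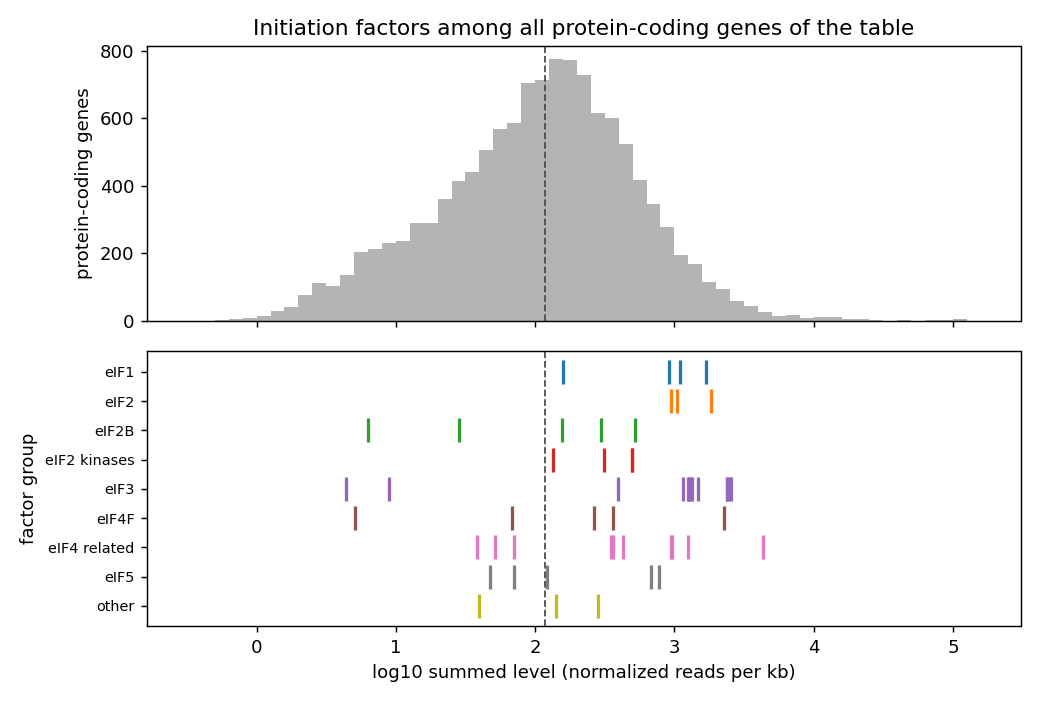
The upper panel counts all 12120 protein-coding genes by the log10 of their summed level in reads per kb, and the lower panel marks each initiation factor gene as a tick in its factor group. The dashed line is the median of all genes, 117 reads per kb, and 40 of the 52 ticks lie to its right.

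The cell line label was set against a few marker genes. VIM, AXL, EGFR and CD44, which mark mesenchymal-like breast cancer lines, had levels from 427 to 3786 reads per kb. ESR1, PGR and CDH1 had no protein-coding row, and ERBB2, GATA3 and EPCAM had levels of 24.1, 29.5 and 43.3, while the keratins KRT8 and KRT18 had 331 and 3542. Of 3 genes of other cell types, PTPRC and ALB had no protein-coding row and PECAM1 had 4.08.

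Many mRNAs of the translation machinery begin with a C and a run of pyrimidines at the first bases, the TOP motif, through which LARP1 and mTOR control their translation. The start sites are shown because they differ between subunits of the same complex. Each window holds 10 bases before and 14 bases from the RefSeq start on GRCh38.p14, read on the strand of the gene, and the capitals mark the unbroken run of C and T from the first base.
EIF3D (chr22:36529153-36529176, minus): cgcatgtttcCTCTTTTCCTggtt
EIF3F (chr11:7987327-7987350, plus): cttccgcctcCTTCTTTCTCgaca
EIF3M (chr11:32583821-32583844, plus): gcccagttccCTTTTCCggtcggc
EIF3K (chr19:38619178-38619201, plus): tttccaccacCTCTTCCTgttccc
EIF4B (chr12:53006446-53006469, plus): tcatccgggtCTTTTgcgttctct
EIF4A2 (chr3:186783567-186783590, plus): gcgccgctgtCTTTTCagtcgggc
EIF2S3 (chrX:24054946-24054969, plus): gatttccttcCTCTTTTggcaaca
EIF2A (chr3:150546777-150546800, plus): cgagcggtttCTCTTTCCgggaca
EIF2D (chr1:206612452-206612475, minus): ccagccgggcCCTTTTCgcggccg
EIF4A1, without such a run (chr17:7572815-7572838, plus): ggcactccgccctagtttctaagg

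The search asked for a C at the start followed by 4 bases that are each C or T, on the strand of the gene only, and its form was chosen with these sequences in view. Starts on chromosome 8, where EIF3E, EIF3H and EIF4EBP1 lie, were left out of the search. RefSeq starts were used for 43 of the 52 genes, and 9 of them, or 20.9%, had the run at a start. Of the 35116 starts used 4.07% had it, and of the 9485 genes of the deposited table with such a start 7.27%. The 9 genes had levels between 141 and 2513 reads per kb with a median of 1044, and the 34 genes without it between 5.06 and 4343 with a median of 360. Over all genes of the table the medians were 142 with the run and 122 without. The presence of these letters was not tested against the levels.

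The scanning factors of the eIF1 group had 3 of their 4 genes above the 90th percentile. EIF1, which guards the choice of the start codon, had the highest level of the group, 1690 reads per kb, at percentile 96.8. Its paralog EIF1B had 916, so the protein-coding transcripts of EIF1 stood 1.85 times higher. EIF1AX, the X-linked gene for eIF1A, had 1092, almost evenly divided between a short transcript of 765 bases (554 reads per kb) and a long one of 4427 bases (539 reads per kb). Part of its canonical transcript also occurs in the copy EIF1AXP1, so some of its reads could belong to either. EIF1AD, an eIF1A-like protein, was lower than the other three genes, with 159 spread over 5 transcripts, the highest of which held 47.8% and the next 26.4%.

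The genes for the 3 subunits of eIF2 lay close together. EIF2S2, for the beta subunit, had 1835 reads per kb, EIF2S3, for the gamma subunit that binds GTP and the tRNA, had 1044, and EIF2S1, for the alpha subunit that the kinases phosphorylate, had 940. The highest was 1.95 times the lowest, the narrowest range among the complexes examined, and all 3 lay above the 90th percentile. All 3 also had their canonical transcript of GENCODE release 44 listed. EIF2B4 and EIF4G1, the lowest genes of eIF2B and eIF4F, did not, and reads of EIF3CL, the lowest of eIF3, cannot be assigned with certainty. The ranges thus do not rest on equal coverage of the genes. EIF2S1 was divided over 4 transcripts, of which a short one of 783 bases held 48.3% of its level and one of 4485 bases 26.9%. EIF2S2 and EIF2S3 each had a single protein-coding transcript. With the highest transcript alone for each gene the ratio within eIF2 was 4.04.

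The exchange factor eIF2B was lower and more uneven than eIF2. EIF2B1, for the alpha subunit, had 521 reads per kb, EIF2B3, for the gamma subunit, had 296 and EIF2B5, for the catalytic epsilon subunit, had 155. For EIF2B5, 1 of 3 protein-coding transcripts of GENCODE release 44 was listed, and the canonical one was not. EIF2B3 was divided over 3 transcripts with 59.5%, 21.5% and 19.1% of its level. EIF2B2 and EIF2B4, for the beta and delta subunits of the regulatory core, had 28.5 and 6.30, so the highest was 82.7 times the lowest. These last 2 genes each had 1 protein-coding transcript in the table, and for EIF2B4 that transcript, with a mean normalized read count of 11.1, was not found in GENCODE release 44. None of the 4 protein-coding transcripts of EIF2B4 in release 44 was listed. In EIF2B2, a retained-intron transcript of 1011 bases had 393 reads per kb, well above the protein-coding one. Over all types EIF2B2 had 708, above EIF2B5 with 653 and EIF2B1 with 521, and the ratio within eIF2B was 20.

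All 4 eIF2 kinases were listed above the median of all genes. EIF2AK1 (HRI, which responds to heme shortage and mitochondrial stress) had 499 reads per kb and EIF2AK2 (PKR, the sensor of double-stranded RNA) had 498. EIF2AK4 (GCN2, the sensor of uncharged tRNA) had 313, and EIF2AK3 (PERK, the sensor of unfolded proteins in the endoplasmic reticulum) had 134. The first was 3.73 times the last. EIF2AK1 had 1 protein-coding transcript, while EIF2AK3 was divided between transcripts of 4222 and 4646 bases with 49.2% and 35.3% of its level. For EIF2AK3, 1 of 5 protein-coding transcripts of GENCODE release 44 was listed. In EIF2AK2 the shortest transcript, of 1533 bases, held 59.8% and the longest, of 10042 bases, 22.3%.

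The scaffold eIF3 holds the small subunit ready for the mRNA and had most of its genes at high levels. Of its 13 listed genes, 10 lay at 1000 reads per kb or more, a cut applied to these same levels. They ran from 1157 to 2542, a 2.20-fold range bounded below by the cut. Any gene above the cut lies above the 90th percentile, since EIF5B with 774 already did. With the highest transcript alone the same 10 ran from 571 for EIF3J to 2400 for EIF3I. The top 4 were EIF3H with 2542, EIF3D with 2513, EIF3I with 2400 and EIF3E with 2375. EIF3D is the subunit that can itself bind a cap, and EIF3H and EIF3F carry the paired MPN domains of the octamer core. EIF3A, the largest subunit and the backbone of the complex, had 1480, and EIF3M, of the octamer core, 1339. EIF3B, which with EIF3G and EIF3I makes up the mobile module near the entry of the mRNA channel, had 1243, EIF3G 1292 and EIF3F 1265, and EIF3J, a loosely held subunit, had 1157.

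The other three eIF3 genes fell far outside this block. EIF3K had 393 reads per kb, EIF3L, its partner at the edge of the octamer, had 8.90, and EIF3CL had 4.41. For EIF3L 1 of 8 protein-coding transcripts of GENCODE release 44 was listed, with a mean normalized read count of 28.7, and its canonical transcript was not. EIF3K also lacked its canonical transcript, with 4 of 8 listed. EIF3CL, on chromosome 16 from 28379579 to 28403841 of hg38, is a near copy of EIF3C: 98.7% of the 50-base words of its canonical transcript occur in transcripts of EIF3C. EIF3C itself had no protein-coding row and 1 retained-intron row with 1.92 reads per kb. Reads of this pair cannot be assigned to either gene with certainty, and the level of the eIF3c subunit is therefore not given here.

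Within eIF3 the division over transcripts differed from gene to gene. EIF3A was shared by a transcript of 4495 bases (67.4%) and the one of 6646 bases (32.6%), and EIF3B by 2 transcripts of nearly equal length, 2966 and 3055 bases (53.8% and 39.7%). GENCODE release 44 has 1 protein-coding transcript of EIF3A, so at most 1 of its 2 is protein-coding there. In EIF3G a fragment of 453 bases held 47.2% of the level beside the 1103-base transcript with 52.8%, although it had 276 of the reads against 753. EIF3J was led by a 1550-base transcript with 49.4%, with the 2569-base one at 32.7%. Short transcripts weigh more on a scale per kb than in reads, as the EIF3G pair shows.

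**Figure D2:**
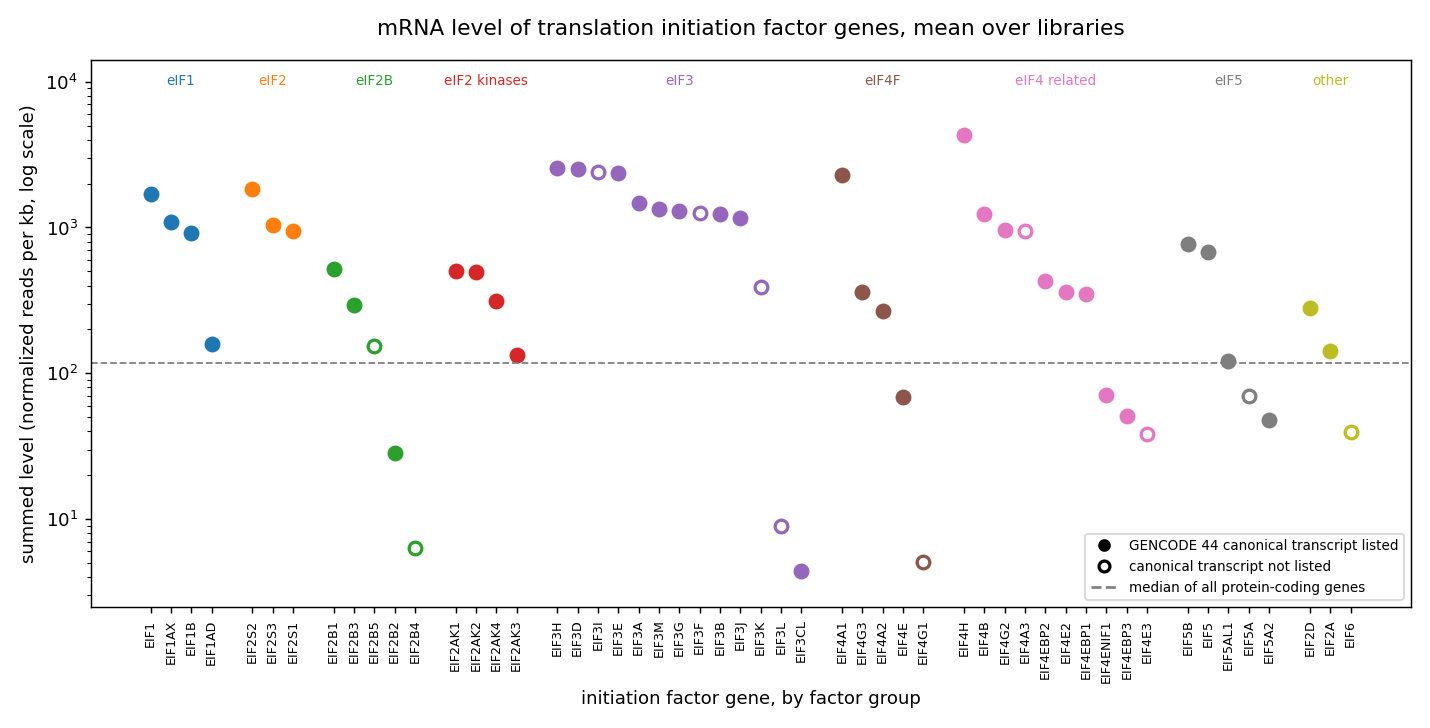
Each point is 1 initiation factor gene, with its summed level in reads per kb on a log axis, ordered by factor group. Filled points have their GENCODE 44 canonical transcript in the table, open points do not, and the dashed line is the median of all protein-coding genes, 117 reads per kb. The 10 eIF3 genes at 1000 or more lie between 1157 and 2542, and EIF3CL, EIF4G1, EIF2B4 and EIF3L lie below 10.

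The cap-binding complex eIF4F joins the helicase eIF4A, the cap-binding protein eIF4E and the scaffold eIF4G. EIF4A1, the main helicase gene, had 2275 reads per kb, 99.2% of it in 1 transcript of 1756 bases. EIF4A2, its paralog, had 267 in protein-coding transcripts, 8.53 times less, and canonical EIF4A1 shares no 50-base word with EIF4A2 transcripts. EIF4E, the cap-binding protein, had 68.4, and its main transcript, the longest among the members with 11523 bases, had a mean normalized read count of 686. By summed counts without division by length EIF4E had 696 and EIF4A2 444, so the order of these 2 genes turned on that division. The scaffold gene EIF4G3 had 360 reads per kb, with 73.3% in the first of its 6 transcripts.

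EIF4G1, usually regarded as the main scaffold of eIF4F, had 5.06 reads per kb, at percentile 4.42. This came from 1 transcript with a mean normalized read count of 28.7. In GENCODE release 44 the gene, on chromosome 3 from 184314495 to 184335358, has 26 protein-coding transcripts, of which this 1 was listed, and the canonical one was not. The value thus belongs to that transcript and is no measure of the whole gene. EIF4G2 (DAP5), a related scaffold that lacks the eIF4E site, had 959.

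Among the factors around eIF4F, EIF4H and EIF4B, both of which stimulate the helicase, had 4343 and 1242 reads per kb. EIF4H had the highest level of all 52 genes, and 97.7% of it lay in 1 transcript of 2503 bases with a mean normalized read count of 10618. EIF4A3, a helicase of the exon junction complex and not of initiation, had 947. EIF4EBP1 and EIF4EBP2, the repressors that hold eIF4E when mTOR is inactive, had 349 and 430, and EIF4EBP3 had 51.1. The cap-binding relatives EIF4E2 and EIF4E3 had 360 and 38.4, and EIF4ENIF1, the carrier of eIF4E into the nucleus, had 70.8. EIF4E2 had the lowest share in its leading transcript among all members, 31.2%, and the next of its 6 transcripts, of 797 bases, held 28.4%. EIF4E3 was shared by transcripts with 41.1% and 38.9%, and EIF4ENIF1 by transcripts with 66.0% and 20.1%.

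The late factors spread widely. EIF5B, the GTPase of subunit joining, had 774 reads per kb, 76.5% of it in a transcript of 4698 bases and 23.5% in one of 5777. EIF5, the GTPase activator of eIF2, had 676. EIF5A, whose protein carries hypusine and also serves elongation, had 70.4 in 3 protein-coding transcripts, with 46.9%, 37.9% and 15.2% of that level. These are 3 of its 9 protein-coding transcripts in GENCODE release 44, and the canonical one was not listed. Its copy EIF5AL1 had 121, and 11.6% of the 50-base words of its canonical transcript occur in EIF5A, so some of its reads could belong to either gene. EIF5A2 had 47.6 and shared no such word. Of the remaining members, EIF2D and EIF2A, both linked to tRNA delivery apart from eIF2, had 281 and 141, and EIF6, the factor that keeps the large subunit apart until release, had 39.8. EIF6 also lacked its canonical transcript, with 1 of 5 listed, so the values of EIF5A and EIF6 belong to those transcripts and are no measure of the whole gene.

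Several low members had few of their annotated transcripts in the table. The canonical transcript of GENCODE release 44 was listed for 41 of the 52 genes (78.8%), against 85.8% of the 12095 protein-coding genes of the table that have one. The authors used release 24, which was not at hand, and a transcript absent from release 24 could not be listed. The same limit holds for the counts of listed release 44 transcripts given for single genes. The median level was 521 reads per kb in the 41 genes and 70.4 in the other 11. Of the 4 genes at or below the 10th percentile (EIF3CL, EIF4G1, EIF2B4 and EIF3L), 3 had no canonical transcript listed. EIF3I, EIF3F and EIF4A3, at 2400, 1265 and 947, also lacked theirs, so the absence did not always go with a low level. The rest of the 11 were EIF3K, EIF2B5, EIF5A, EIF6 and EIF4E3, at 393, 155, 70.4, 39.8 and 38.4. The levels of all 11 cover their listed transcripts alone. The part of unlisted transcripts in these levels was not tested.

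Transcripts of other annotated types were a large part of several members. Outside the rule, 39 of the 52 genes had 103 further rows, namely 76 with a retained intron, 16 processed transcripts without a reading frame, 10 marked for nonsense-mediated decay and 1 awaiting experimental evidence. In 13 genes (25.0%) these rows held over 50% of the level over all types, against 13.3% of all protein-coding genes, and 6 of the 13 had no canonical transcript listed. The 13 were EIF6, EIF3L, EIF2B2, EIF4A2, EIF5A, EIF2B4, EIF4EBP1, EIF2B5, EIF5, EIF1, EIF2S1, EIF4G1 and EIF2D.

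For some of these genes the order of levels turned on the choice of type. EIF6 had 1200 reads per kb in a single 739-base decay transcript and 39.8 in its protein-coding one. EIF4A2, a host of small nucleolar RNAs, had 1994 in retained-intron rows, which brought it to 2316 over all types beside 2372 for EIF4A1, a ratio of 1.02 in place of 8.53. EIF1 reached 6154 over all types, 6.48 times EIF1B, led by a processed transcript with 2606. EIF2S1 reached 2756 and passed EIF2S2, so that the order within eIF2 changed. EIF4EBP1 reached 1587 and passed EIF4EBP2. EIF5A reached 517, so that EIF5AL1 went from 1.72 times to 0.234 times its level, and EIF2B2 moved to the top of eIF2B. How the estimation program divided reads between such overlapping transcripts cannot be seen in the table.

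**Figure D3:**
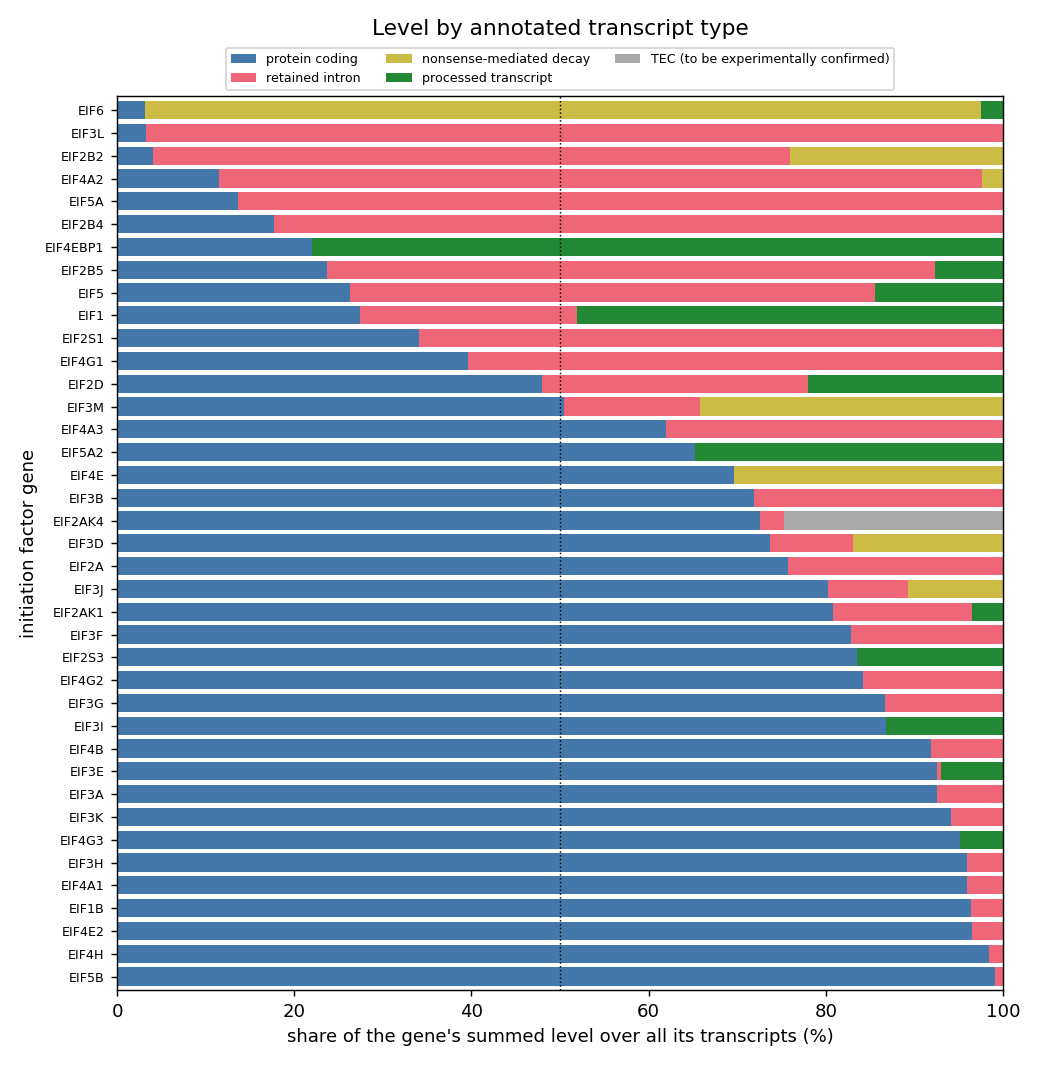
Bars show, for the 39 initiation factor genes with rows of other types, the share of the summed level over all listed transcripts that falls to each annotated transcript type, in percent. Genes are ordered by the share outside protein-coding transcripts, which exceeds 50% (dotted line) in 13 genes and reaches 96.9% in EIF6.

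Genes that work beside these factors were also mostly above the median of all genes. Of 23 symbols of other initiation genes, 21 had a protein-coding row, with a median of 455 reads per kb, 19 of them above the median of all genes. PABPC1, the poly(A)-binding protein that contacts eIF4G, had 6574, while the kinases of eIF4E, MKNK1 and MKNK2, had 17.4 and 389. PPP1R15A and PPP1R15B, which bring the phosphatase to eIF2, had 1408 and 374, beside 134 to 499 for the 4 kinases. PDCD4, an inhibitor of eIF4A, had 290. The 9 elongation genes had a median of 539, which was the level of EEF1A1, and EEF1A2 had 1224. The lowest was EEF2K with 67.3. How fully the transcripts of these genes were listed was not tested. EEF1G with 10475 and EEF2 with 6136 lay, like PABPC1, above the highest initiation factor. The 3 listed termination and recycling genes, of which ABCE1 is also among the 21, lay between 1023 and 1164.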

How the data were processed

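The authors made libraries from total RNA with an mRNA kit, mapped the reads with STAR under default parameters to the transcripts of GENCODE release 24, obtained reads per transcript from eXpress and ran DESeq2. The submitters' processing notes name STAR, DESeq2 and hg38, and tool versions are not given in the sources used here. The deposited table gives each transcript a signal, the authors' mean normalized read count, which starts at 7.34. The table also holds 3 columns of the authors' own comparison (log2 fold change, p-value and q-value of KH-3 against DMSO), which were not used. Depth per library is unknown.

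Counts were divided by the transcript length in the table and summed over protein-coding transcripts by gene symbol. A percentile is the rank of a gene among all 12120 protein-coding genes. No test was possible without values per library. Coordinates and canonical transcripts come from GENCODE release 44 on hg38, which holds 121 of the 128 member transcripts by ID, and start sites from RefSeq. Every member was named with its level, and transcripts where at least 2 held 20% or more. Proteins were not printed, since no protein sequences were at hand. The members and lists were chosen with earlier results of these data known. Summing and ranking were tested on simulated data. Python 3.11.15, numpy 2.4.6, pandas 2.3.3 and matplotlib 3.10.9 were used.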

Additional observations from a re-analysis of the deposited data

How the results depend on the processing

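No paired analysis was possible because no value per library was used, and leaving out a replicate was not possible for the same reason. With every molecule type the rule matched 63 genes, and with a minimum of 50 reads per transcript 45. The median level of 464 reads per kb became 517 with every molecule type over the 63 matched names, and 745 over the 52 genes alone. It was 365 with the highest transcript alone, 676 with the minimum of 50 reads and 536 with lengths shortened by 200 bases. The median percentile of 83.5 became 83.9 with every molecule type, 83.9 with the highest transcript alone, 87.0 with the minimum and 82.5 without division by length. The ratio of highest to lowest subunit in eIF2 (1.95) was 4.04 with the highest transcript alone, 2.20 with every type and 1.77 with shortened lengths. In eIF2B (82.7) it was 60.5 with the highest transcript alone, 20 with every type and 18.3 with the minimum. In eIF3 (576) it was 544 with the highest transcript alone, 1778 with every type, 8.49 with the minimum, which removes EIF3CL and EIF3L, and 680 with shortened lengths. The 1778 takes in EIF3C, at 1.92 reads per kb in its retained-intron row, which is not among the 52 genes. In eIF4F (450) it was 446 with the highest transcript alone, 186 with every type, 37.9 with the minimum, which removes EIF4G1, and 491 with shortened lengths. Merging EIF3C with EIF3CL could not change the eIF3 ratio, since EIF3C has no protein-coding row, and does not bear on it. In 25 genes 1 transcript held over 90% of the level, in 26 by reads without length and in 19 of the 63 matched names with every type. Single genes moved by over 1.5 times in 16 cases with every type, 14 with the highest transcript alone, 1 with the minimum and 0 with shortened lengths. The ratio of the highest to the lowest of all members (984) was 1395 with every type, over the 52 genes and so without EIF3C. It was 962 with the highest transcript alone, 290 with the minimum and 1000 with shortened lengths. These ratios and the group medians were added after seeing the data. A value pooled over libraries cannot show a change between treatments, and transcripts below 7.34 reads were not analysed here.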

Other observations

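Names that match the pattern but not the protein-coding type gave 12 further rows. Processed pseudogenes, which are intronless copies of an mRNA, made up 9 of them. EIF1AXP1, of 435 bases, had 496 reads per kb and a mean normalized read count of 216. In it occur 303 of the 4365 50-base words of canonical EIF1AX. That is 6.94% of the long EIF1AX transcript, but a far larger part of the short pseudogene. Many reads of EIF1AXP1 could therefore belong to either gene. The other pseudogene rows ran from 8.17 reads per kb for EIF3EP1 to 114 for EIF2S2P4, with EIF4A1P10, a copy of EIF4A1, at 93.7. Words that these other pseudogenes share with their parent genes were not counted. The antisense gene EIF3J-AS1 had 2 rows with 34.3 and 22.2 reads per kb. EIF2S3 shares 19.2% of its 50-base words with EIF2S3B, which had no protein-coding row, and reads within such shared stretches cannot be assigned to 1 gene.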
